A study of Mus musculus with 6 samples.

Results

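The goblet cell genes described here are 10 genes chosen by name for their part in intestinal mucus: Muc2, Tff3, Clca1, Fcgbp, Zg16, Agr2, Spdef, Rep15, Hepacam2 and Spink4. All 10 were found by symbol among the 55298 genes of the deposited count table, all 10 passed the filter on low counts, and the smallest count of any of them in any library was 84 reads. The counts come from total RNA of epithelial cells isolated from the small intestine of mice in a collagen-induced arthritis model, in which immunisation with collagen brings on joint inflammation. There were 6 libraries: 3 labelled HIF2α +/- ΔIEC, described by the submitters as an intestinal knockout of HIF2α, and 3 labelled HIF2α +/- F/F, from littermate controls. Every mouse in both groups was in the arthritis model, so there is no group without it, and both labels hold a +/- that the labels do not explain. The Cre driver, age, sex, number of mice per library and segment of the intestine are not given in the sources used here. The question put to these genes was how their RNA in arthritic epithelium differed between the ΔIEC and control groups.

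Goblet cells are secretory cells of the intestinal epithelium that release the mucus gel. The gel is built from the mucin Muc2, which is folded and disulfide-linked in the endoplasmic reticulum, packed into granules and, after release, expanded, cross-linked and cut by proteins that are secreted with it. Goblet cells become more frequent from the duodenum to the ileum, and their maturation depends on the transcription factor Spdef.

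The libraries held 28937122 to 32542170 counted reads in the ΔIEC group and 35686871 to 38454620 in the control group. The targeted gene Epas1, which encodes HIF2α, had 44.2, 25.9 and 31.9 CPM (read counts scaled to library size with TMM factors) in the ΔIEC libraries, against 12.2, 19.4 and 17.5 CPM in the control libraries. Its level goes against the knockout label, so every direction below is that of the libraries labelled ΔIEC. The table has 1 count for the whole gene, which does not separate a deleted part from the rest. The groups also differed in how read counts depended on the GC content of transcripts. The slope of a library's deviation in log2 CPM was -0.79, -0.89 and -0.64 per 10% GC in the ΔIEC libraries, against 0.96, 0.93 and 0.44 in the control libraries. Each comparison was therefore made with and without a correction for transcript GC content and length, in which the trend of each library was fitted over all genes and taken out. Whether each library is a separate mouse is not stated in the labels, so the p-values measure the spread between these libraries, which may be technical.

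Without correction, 4 of the 10 goblet cell genes rose in the ΔIEC libraries (Hepacam2, Rep15, Clca1 and Agr2), 3 fell (Spdef, Spink4 and Tff3) and 3 did not pass an adjusted p below 0.05 (Muc2, Zg16 and Fcgbp). Of all tested genes, 66.9% were called without correction, 37.2% higher and 29.7% lower, so 7 of 10 is close to the share of genes at large. With correction, 2 rose (Hepacam2 and Rep15) and none fell, against 29.9% of all tested genes called, 14.3% higher and 15.6% lower. The groups did not overlap for 7 of the 10 genes without correction, against 72.6% of all tested genes, and for 3 of the 10 with it, against 47.9%. The median log2 fold change of the 10 genes was -0.04 without correction and 0.15 with it, against 0.15 and -0.02 over all tested genes. The single changes ran from -1.46 to 2.57 without correction and from -0.46 to 1.14 with it. In RNA from mixed epithelium, a smaller or larger number of goblet cells and a smaller or larger amount of RNA in each cannot be told apart.

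**Figure D1:**
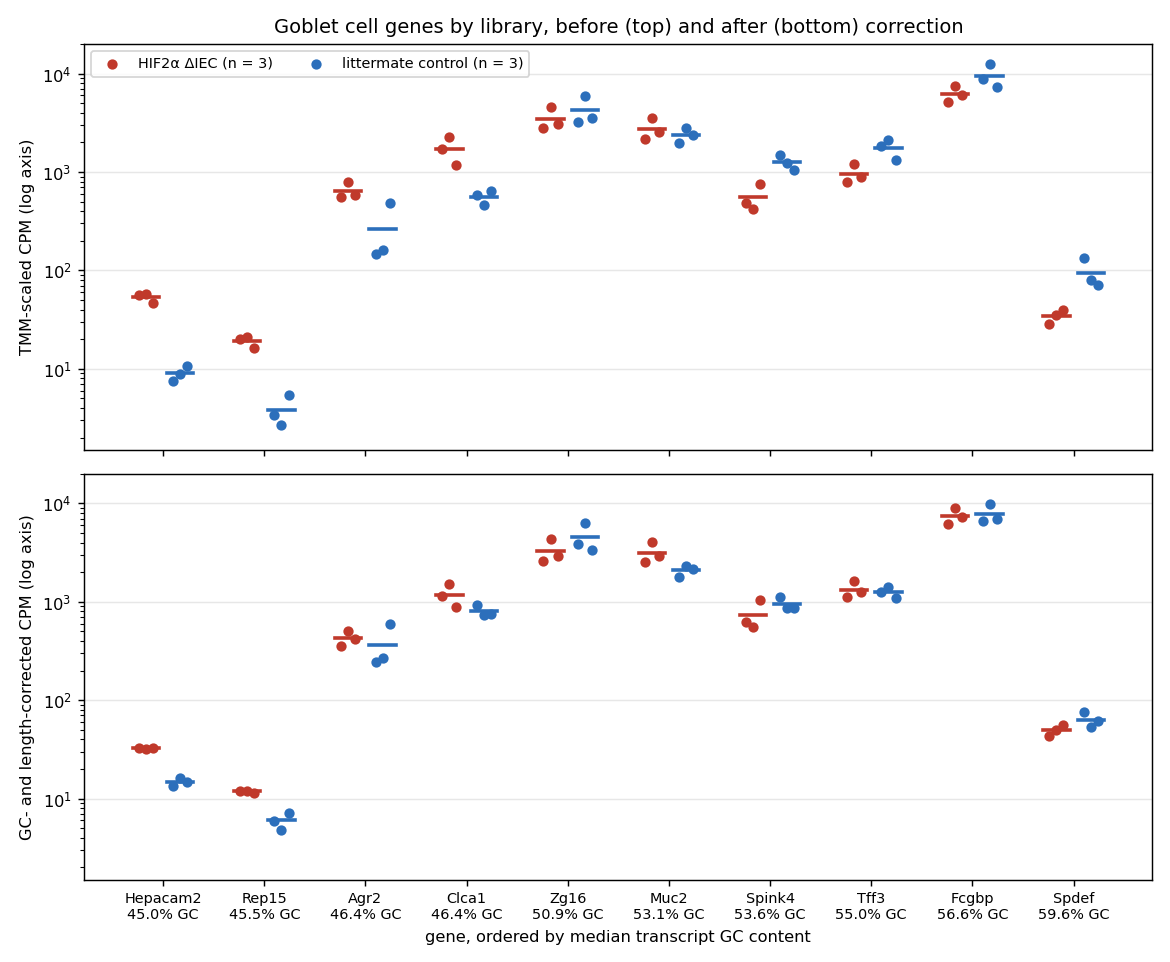
Level of each goblet cell gene in every library, as TMM-scaled CPM (top) and as CPM after correction for GC content and length (bottom), on log axes. Points are libraries and bars are means of 3, with HIF2α ΔIEC in red and littermate control in blue. Genes run from low to high transcript GC content: in the top panel the ΔIEC libraries are above the control libraries for the 4 genes at the left and below them for Spink4, Tff3 and Spdef, while Zg16, Muc2 and Fcgbp overlap, and after correction the groups lie apart for Hepacam2, Rep15 and Muc2.

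Among the genes called, the direction of the uncorrected change followed the GC content of the transcript. The 4 genes that rose have a median transcript GC content between 45.0% and 46.4%, and the 3 that fell between 53.6% and 59.6%. The 3 that did not pass lie at 50.9% (Zg16), 53.1% (Muc2) and 56.6% (Fcgbp), with changes of -0.28, 0.21 and -0.61. The tested genes within 0.5 percentage points of their GC content had medians of 0.28, -0.48 and -1.04. Zg16 and Muc2 thus had the opposite sign to genes of like GC content. Across the 10 genes, which share the same 6 libraries and are not replicates, Spearman's rho of the uncorrected log2 fold change with GC content was -0.93, and across all tested genes it was -0.74. After correction these values were -0.67 and -0.09. Libraries scaled by total counts gave 5 higher and 2 lower genes in place of 4 and 3, and this scaling put the median log2 fold change of all tested genes at 0.61, against 0.15 with TMM and 0.01 with DESeq2 size factors.

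**Figure D2:**
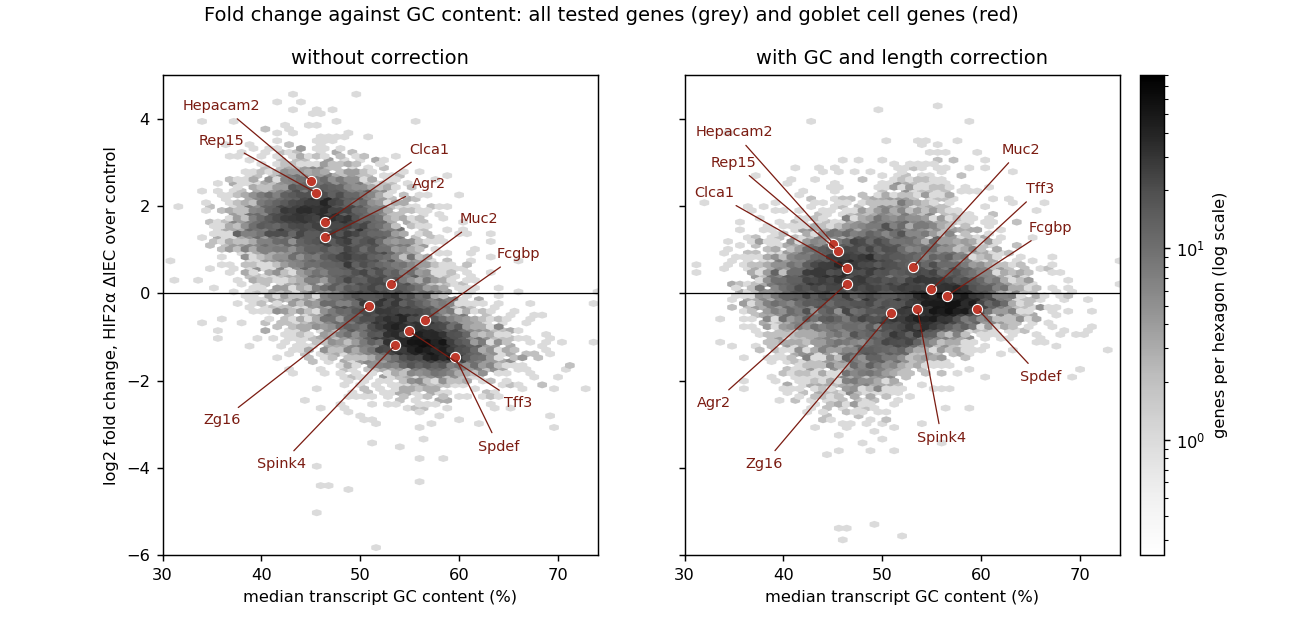
Log2 fold change of HIF2α ΔIEC over littermate control libraries (vertical axis) against median transcript GC content in percent (horizontal axis), without correction (left) and with it (right). Grey hexagons count all tested genes, apart from 11 on each side that lie outside the axes, and red points are the 10 goblet cell genes. On the left the goblet cell genes fall with GC content, as all genes do. Muc2 and Zg16 have the opposite sign there to genes of like GC content. On the right the goblet cell genes lie between -0.46 and 1.14.

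Spdef, an ETS-family transcription factor of goblet and Paneth cell maturation, is the regulator of the set (ENSMUSG00000024215, GRCm38 chr17:27714352-27728955, minus strand). It had 28.6, 34.96 and 39.4 CPM in the ΔIEC libraries, against 133, 79.9 and 71.5 CPM in the control libraries. The highest ΔIEC library was below the lowest control library, with an uncorrected log2 fold change of -1.46 (adjusted p = 0.00088 in the quasi-likelihood test of edgeR, SE 0.28). Its transcripts have the highest GC content of the set, 59.6%, and the 378 tested genes within 0.5 percentage points of that GC content had a median change of -1.25. Corrected levels were 42.8, 50.1 and 56.4 CPM in the ΔIEC libraries, against 76.7, 53.3 and 60.7 CPM in the control libraries, where 1 ΔIEC library exceeded the lowest control library. The corrected log2 fold change was -0.35 (SE 0.19, adjusted p = 0.19), and it missed the threshold without each library in turn as well.

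The 250 bases before the RefSeq start of Spdef and of Muc2 are shown because they are the windows, among those of the 5 genes of the set that the RefSeq table for GRCm38.p6 held, with a match to the motifs searched. The motifs were ACGTG and GCGTG, the core of the hypoxia response element to which HIF2α binds, and CGGATG, the core of the SPDEF motif, each on both strands. Capitals mark the matches, written 5′ to 3′ on the strand of the gene.
Spdef, chr17:27728952-27729201, minus strand: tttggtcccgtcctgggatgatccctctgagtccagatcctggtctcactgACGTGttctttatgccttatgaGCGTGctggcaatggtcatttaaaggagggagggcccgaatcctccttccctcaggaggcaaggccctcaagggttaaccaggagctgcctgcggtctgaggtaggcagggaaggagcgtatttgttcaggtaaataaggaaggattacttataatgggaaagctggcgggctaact
Muc2, chr7:141690090-141690339, plus strand: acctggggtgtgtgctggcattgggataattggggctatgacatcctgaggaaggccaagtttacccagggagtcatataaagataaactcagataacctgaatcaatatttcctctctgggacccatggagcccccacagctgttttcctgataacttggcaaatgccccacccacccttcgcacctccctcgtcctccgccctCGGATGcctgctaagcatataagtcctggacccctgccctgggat
The window of Spdef holds ACGTG starting 199 bases and GCGTG starting 177 bases before the start site, and the 2 matches do not overlap. The window of Muc2 holds CGGATG starting 45 bases before the start site. The windows of Hepacam2, Fcgbp and Agr2 hold none of these letters. Of 32851 such windows in the table, 38.6% hold ACGTG or GCGTG and 4.9% hold CGGATG. A match is a description of the letters and was not tested as a binding site.

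Muc2, the gel-forming mucin itself (ENSMUSG00000025515, GRCm38 chr7:141690340-141754693, plus strand), did not pass with or without correction. It had 2179, 3520 and 2577 CPM in the ΔIEC libraries, against 1990, 2768 and 2397 CPM in the control libraries, with overlapping groups and a log2 fold change of 0.21 (SE 0.26, adjusted p = 0.48). After correction all 3 ΔIEC libraries, at 2518, 4035 and 2900 CPM, were above the control libraries, at 1780, 2332 and 2134 CPM. The corrected change was 0.60 (SE 0.23, adjusted p = 0.076 in edgeR), and the DESeq2 Wald test on the same normalisation gave 0.60 with an adjusted p of 0.042. The correction used a median transcript length of 767 bases for Muc2, against 7127 bases of annotated exon. With the longest transcript in place of the median, the edgeR change was 0.38 (adjusted p = 0.23). With GC content alone corrected it was 0.48 (adjusted p = 0.14). Under total count scaling the uncorrected change was 0.67 and passed (adjusted p = 0.037), and without ΔIEC library 2 the uncorrected change was -0.00034.

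Fcgbp, a large secreted protein of repeated von Willebrand factor D domains that is bound into the Muc2 network, took the most reads of the set (ENSMUSG00000047730, GRCm38 chr7:28071236-28120862, plus strand). It had 5090, 7439 and 6126 CPM in the ΔIEC libraries, against 8804, 12374 and 7256 CPM in the control libraries. ΔIEC library 2 exceeded control library 3, and the log2 fold change of -0.61 (SE 0.27) missed the threshold at an adjusted p of 0.067 in edgeR. It passed without control library 3 (-0.81, adjusted p = 0.030), in the DESeq2 Wald test (-0.76, adjusted p = 0.021) and in limma-voom with sample weights (-0.83, adjusted p = 0.0077). After correction the change was -0.05 (SE 0.24, adjusted p = 0.89). Related Fcgbp-like genes may share its reads.

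Clca1, a secreted metalloprotease that acts on the Muc2 gel (ENSMUSG00000028255, GRCm38 chr3:145003817-145032776, minus strand), showed the third largest uncorrected increase of the set. It had 1722, 2275 and 1170 CPM in the ΔIEC libraries, against 579, 461 and 636 CPM in the control libraries, so that the groups were apart. The log2 change between groups was 1.62 (SE 0.28, adjusted p = 0.00053), and the call held without each library in turn. The 802 tested genes of like GC content had a median change of 1.55. Corrected levels were 1157, 1507 and 890 CPM in the ΔIEC libraries, against 916, 728 and 752 CPM in the control libraries, with ΔIEC library 3 below control library 1. The corrected change of 0.57 (SE 0.22) missed the threshold (adjusted p = 0.085) and passed without ΔIEC library 3 (0.73, adjusted p = 0.041) and in limma-voom with sample weights (0.72, adjusted p = 0.018). Of 13 alternatives it passed in 3, and over those that keep all libraries it ranged from 0.34 to 1.70. The correction used a median transcript length of 629 bases, against 3777 bases of annotated exon.

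Zg16, a secreted lectin that binds peptidoglycan of Gram-positive bacteria (ENSMUSG00000049350, GRCm38 chr7:127050156-127087328, minus strand), did not pass in either fit. It had 2773, 4628 and 3061 CPM in the ΔIEC libraries, against 3186, 5982 and 3537 CPM in the control libraries. ΔIEC library 2 and control library 2 were the highest of their groups, by more than the difference between the group means. Their shared number is not a pairing. The log2 change between groups was -0.28 (SE 0.30, adjusted p = 0.43) without correction and -0.46 (SE 0.30, adjusted p = 0.26) with it.

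The trefoil peptide Tff3 and the protease inhibitor Spink4 are small secreted proteins of goblet cells. Tff3, which acts in epithelial repair (ENSMUSG00000024029, GRCm38 chr17:31125306-31129646, minus strand), had 791, 1193 and 898 CPM in the ΔIEC libraries, against 1848, 2104 and 1315 CPM in the control libraries. The groups were apart and the log2 change between groups was -0.87 (SE 0.26, adjusted p = 0.011). It did not pass without ΔIEC library 1 (-0.74, adjusted p = 0.053), without control library 2 (-0.79, adjusted p = 0.061) and under total count scaling (-0.38, adjusted p = 0.15). With correction its levels of 1108, 1635 and 1247 CPM in the ΔIEC libraries overlapped 1242, 1422 and 1086 CPM in the control libraries, and the change was 0.09 (SE 0.21, adjusted p = 0.77). Tff3 was the gene of the set whose estimate changed sign with the correction.

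Spink4 (ENSMUSG00000028415, GRCm38 chr4:40920052-40931395, plus strand) had 483, 422 and 764 CPM in the ΔIEC libraries, against 1485, 1249 and 1053 CPM in the control libraries. All ΔIEC libraries were lower, with a log2 fold change of -1.18 (SE 0.27, adjusted p = 0.0026), while the 902 tested genes of like GC content had a median of -0.54. The corrected levels of 629, 549 and 1043 CPM in the ΔIEC libraries overlapped 1113, 870 and 872 CPM in the control libraries through ΔIEC library 3. The corrected change of -0.36 (SE 0.26) missed the threshold (adjusted p = 0.31). It passed without ΔIEC library 3 (-0.71, adjusted p = 0.043) and when GC content alone was corrected (-0.81, adjusted p = 0.037).

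Agr2, a protein disulfide isomerase of the endoplasmic reticulum that is needed to make Muc2 (ENSMUSG00000020581, GRCm38 chr12:35992907-36004087, plus strand), varied most, relative to its mean, among the control libraries. It had 554, 784 and 588 CPM in the ΔIEC libraries, against 146, 162 and 484 CPM in the control libraries. Control library 3 lay close to the ΔIEC group and far from the other 2 control libraries. The log2 change between groups was 1.28 (SE 0.44, adjusted p = 0.029), and the call was lost without ΔIEC library 2 (1.11, adjusted p = 0.10), control library 1 (1.02, adjusted p = 0.086) or control library 2 (1.01, adjusted p = 0.077). Without control library 3 the change was 2.01. Corrected levels were 357, 503 and 422 CPM in the ΔIEC libraries, against 241, 270 and 591 CPM in the control libraries, where control library 3 was the highest of all 6. The corrected change was 0.22 (SE 0.33, adjusted p = 0.65), and without control library 3 it was 0.74 and passed (adjusted p = 0.036).

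Hepacam2 and Rep15 were the members called with and without correction, and neither is a secreted mucus protein. Hepacam2, a membrane protein of the immunoglobulin superfamily that is also listed as a marker of mouse tuft cells (ENSMUSG00000044156, GRCm38 chr6:3457096-3498298, minus strand), had 56.4, 57.7 and 46.8 CPM in the ΔIEC libraries, against 7.55, 8.79 and 10.7 CPM in the control libraries. Every ΔIEC library was above every control library, and the log2 change between groups was 2.57 (SE 0.25, adjusted p = 0.00019). With correction it had 32.8, 31.96 and 32.5 CPM in the ΔIEC libraries, against 13.5, 16.1 and 14.6 CPM in the control libraries, a log2 fold change of 1.14 (SE 0.17, adjusted p = 0.0021). Both calls held without each library in turn, with corrected changes between 1.09 and 1.19. The 667 tested genes of like GC content had medians of 1.64 without correction and 0.25 with it. The summed level of 5 tuft cell markers, all detected, was 70.8 to 113 CPM in the ΔIEC libraries, against 45.2, 441 and 292 CPM in the control libraries. Of the 5, none rose in either fit and 1 fell without correction.

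Rep15, an effector of the small GTPase Rab15 in endosome recycling (ENSMUSG00000040121, GRCm38 chr6:147032584-147034245, plus strand), was the least abundant of the set in reads. It had 20.1, 20.9 and 16.3 CPM in the ΔIEC libraries, against 3.39, 2.71 and 5.44 CPM in the control libraries, from 549 to 828 reads in the ΔIEC and 84 to 187 in the control libraries. The log2 change between groups was 2.31 (SE 0.32, adjusted p = 0.00023), with the groups apart. With correction it had 11.99, 12.1 and 11.4 CPM in the ΔIEC libraries, against 5.98, 4.81 and 7.18 CPM in the control libraries, a change of 0.98 (SE 0.22, adjusted p = 0.011). Without control library 2 the corrected change was 0.83 and missed the threshold (adjusted p = 0.052). The 692 tested genes of like GC content had a corrected median of 0.28.

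**Figure D3:**
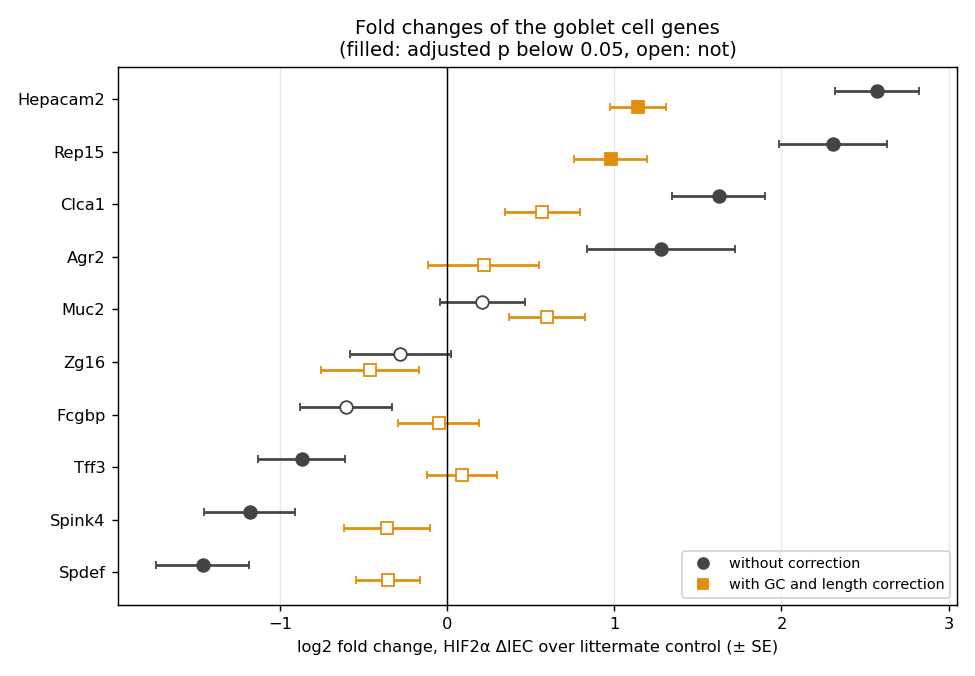
Log2 fold change of HIF2α ΔIEC over littermate control libraries with its standard error (horizontal axis) for each goblet cell gene, without correction (grey circles) and with it (orange squares). Filled symbols passed an adjusted p below 0.05. The 7 filled circles reduce to 2 filled squares, those of Hepacam2 and Rep15.

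**Figure D4:**
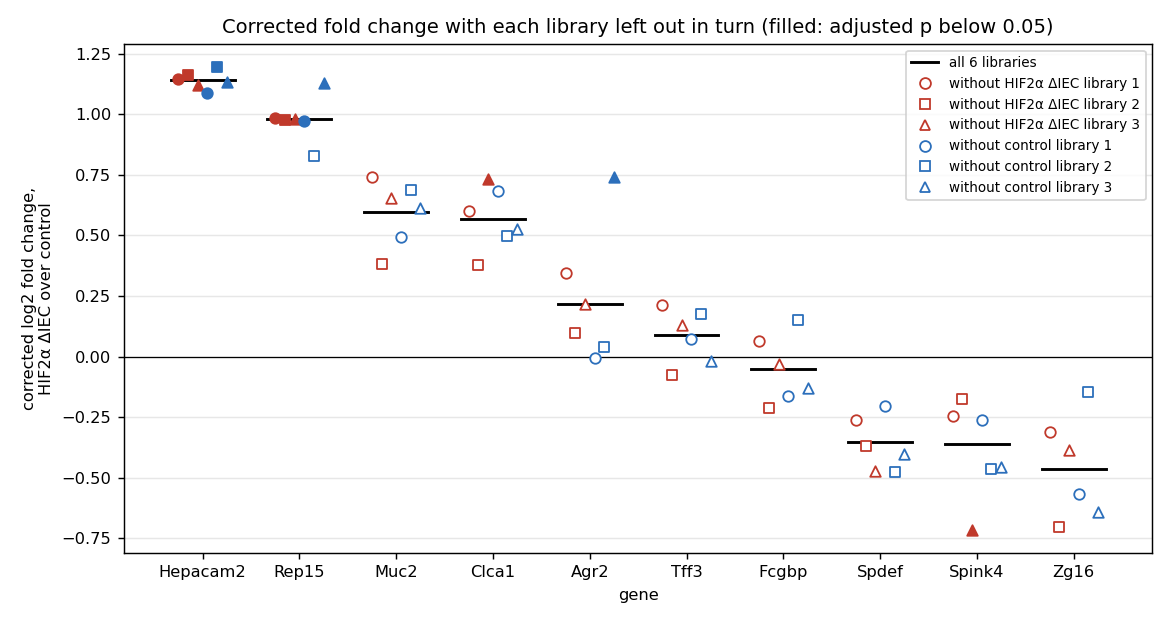
Corrected log2 fold change (vertical axis) of each goblet cell gene with all 6 libraries (black bars) and with 1 library left out (red symbols for ΔIEC, blue for control libraries). Filled symbols passed an adjusted p below 0.05. Hepacam2 passed in all 6 refits and Rep15 in 5, while Clca1, Agr2 and Spink4 passed in 1 each.

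Levels of different genes are given per kilobase without correction, so the GC trend of each library is still in them and their order is a description only. Per kilobase of annotated exon, Tff3 stood at 1949 CPM per kb on average in the ΔIEC libraries and at 3561 in the control libraries. Zg16 stood at 2774 CPM per kb in the ΔIEC and 3369 in the control libraries, and Spink4 at 1167 in the ΔIEC and 2646 in the control libraries. Fcgbp, Agr2, Clca1 and Muc2 came next, at 592, 497, 456 and 387 CPM per kb in the ΔIEC libraries and at 903, 204, 148 and 335 in the control libraries. Spdef, Rep15 and Hepacam2 were far lower, at 14.9, 11.5 and 9.13 CPM per kb in the ΔIEC libraries and 41.1, 2.31 and 1.53 in the control libraries. Tff3 stood above Zg16 in the control libraries and below it in the ΔIEC libraries on this scale, and the corrected mean of Tff3 was 1330 CPM in the ΔIEC libraries and 1250 CPM in the control libraries. The annotated exons of Muc2 sum to 7127 bases, and its true length may be greater. The summed corrected level of the 10 genes was 14671, 21662 and 16798 CPM in the ΔIEC libraries, against 15788, 21869 and 15810 CPM in the control libraries, so the groups overlapped. ΔIEC library 2 and control library 2 had the highest sums of their groups, and their shared number is not a pairing.

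Ratios between members, chosen after their values were seen, differed between the groups in some pairs. The ratio of Muc2 to Fcgbp reads was 0.43, 0.47 and 0.42 in the ΔIEC libraries, against 0.23, 0.22 and 0.33 in the control libraries, and from corrected levels it was 0.41, 0.45 and 0.40 in the ΔIEC libraries, against 0.27, 0.24 and 0.31 in the control libraries. These groups were apart on both scales, and so were the groups of 72.6% of all tested genes without correction and 47.9% with it. No such share over other gene pairs was computed, and the corrected level of Muc2 rests on its median transcript length. The ratio of Hepacam2 to Rep15 reads was 2.81, 2.76 and 2.88 in the ΔIEC libraries, against 2.22, 3.25 and 1.97 in the control libraries, and varied less within the ΔIEC group. Clca1 and Agr2 have nearly the same GC content, and their ratio was 3.11, 2.9 and 1.99 in the ΔIEC libraries, against 3.96, 2.85 and 1.31 in the control libraries, with overlapping groups. None of these ratios was tested.

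The mean corrected profile of the 10 genes, centred over the 6 libraries, was nearly flat, from -0.17 in control library 1 to 0.29 in ΔIEC library 2 on the log2 scale. Single members deviated by -0.78 to 0.77. Among 11003 other genes, the 5 with the smallest root mean square difference from this mean profile over the 6 libraries were Btnl2 (0.067), Guk1 (0.067), Apaf1 (0.072), Tmem268 (0.073) and Gusb (0.076). A nearly flat profile is matched by genes that vary little between libraries. These genes were not compared with any single member, so the match shows no likeness to one.

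Other genes of goblet cells and mucus were described in 6 lists. Their counts stand beside the shares over all tested genes, 37.2% higher and 29.7% lower without correction and 14.3% higher and 15.6% lower with it, and no list was tested as a whole. Leaving out 1 library also lowered the corrected calls over all genes, which were 4524 of 15135 with all libraries. They numbered 2285 of 15431 without ΔIEC library 1, 2845 of 15533 without ΔIEC library 2 and 4315 of 15689 without ΔIEC library 3. For control libraries 1, 2 and 3 the numbers were 3853 of 15691, 2618 of 15651 and 4063 of 15700. The 10135 uncorrected calls numbered 8796 to 10539. Of 14 lineage factors and Notch genes tested, 1 rose and 7 fell without correction (median -0.53), and 2 rose and 3 fell with it (median -0.18). Of these, Foxa1, a pioneer factor of secretory cells, had 33.1, 37.6 and 42.1 corrected CPM in the ΔIEC libraries, against 6.27, 10.5 and 18.0 in the control libraries, a change of 1.70 (SE 0.35, adjusted p = 0.0081), against 0.69 without correction (adjusted p = 0.047 in edgeR). Without correction, no gene of this list was called higher when any ΔIEC library or control library 1 or 2 was left out. The same held with DESeq2 size factors and in the DESeq2 Wald test. Sox9, a factor of crypt and Paneth cells, was lower with correction (-1.47, SE 0.25, adjusted p = 0.0036) and did not pass without it (-0.43, adjusted p = 0.21, with overlapping groups). Both corrected calls held without each library. The related Foxa3 fell (-0.81). Its call was lost without ΔIEC library 1 (-0.71), ΔIEC library 2 (-0.83) or control library 1 (-0.52), with estimates that stayed negative. The Notch target Hes1 fell without correction (-0.58) and rose with it (0.76). The corrected call held in 2 of the 6 fits with 1 library left out and was lost without ΔIEC library 1 (0.82), ΔIEC library 3 (0.55), control library 1 (0.64) or control library 2 (0.68), and with the longest transcript in place of the median it was at -0.52. Atoh1, the master factor of the secretory lineage, did not pass, at -0.49 without correction (adjusted p = 0.11) and -0.33 with it (adjusted p = 0.27). The basic leucine zipper factor Creb3l1 (-1.09) and the endocrine factor Neurog3 (-1.26) fell in the uncorrected fit and did not pass in the corrected one (-0.18 and -0.21). The 5 corrected calls numbered 2 without ΔIEC library 1 or control library 1 and 3 without ΔIEC library 2 or control library 2, and the 8 uncorrected ones 4 without ΔIEC library 1 and 5 without ΔIEC library 2 or control library 2.

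Of 18 enzymes tested that build the O-glycans of mucins, 10 rose and 5 fell without correction (median 1.28), and 6 rose and 2 fell with it (median 0.31). B4galnt2, which adds a terminal N-acetylgalactosamine, had 183, 168 and 260 corrected CPM in the ΔIEC libraries, against 71.3, 58.0 and 92.5 in the control libraries (1.46, SE 0.23, adjusted p = 0.0029). Galnt3, one of the enzymes that start O-glycans, rose by 1.184 (SE 0.21, adjusted p = 0.0043), against 2.45 without correction. For Galnt3 the correction used a median transcript length of 713.5 bases, against 4374 bases of annotated exon. The extension enzyme B3gnt3 fell (-1.03, SE 0.22, adjusted p = 0.0095), and these calls held without each library. Galnt10 fell with all libraries (-0.73). The call was lost without ΔIEC library 1 (-0.63), ΔIEC library 2 (-0.78), control library 1 (-0.55) or control library 2 (-0.77), with estimates that stayed negative. The core 1 synthase C1galt1 rose without correction (1.72) and stood at -0.01 with it, and Gcnt4 rose without correction (1.96) and stood at 0.38 with it. The 8 corrected calls numbered 4 without ΔIEC library 1 or 2, 5 without ΔIEC library 3 and 3 without control library 2.

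Of 24 genes of granules, secretion and the secretory endoplasmic reticulum, 8 rose and 11 fell without correction (median -0.36), and 4 rose and 5 fell with it (median 0.08). Total count scaling gave 9 higher and 2 lower. Unc13b, a priming factor of vesicle release, rose (corrected log2 fold change 1.75, SE 0.25, adjusted p = 0.0020), and so did Bcas1 (1.43, SE 0.25, adjusted p = 0.0041). Kdelr3, a receptor that returns proteins to the endoplasmic reticulum, fell (-1.20, SE 0.22, adjusted p = 0.0046), as did the protease Bace2 (-1.71, SE 0.27, adjusted p = 0.0029, against -0.71 without correction). These 4 calls held without each library, in fits that used the same transcript lengths. The median transcript length was 2715.5 bases for Unc13b, 776 for Bace2 and 1014 for Bcas1. Their annotated exons sum to 22746, 7887 and 3775 bases. The granule protein Sytl4 (2.15 and 0.70) and Rap1gap (-1.03 and 0.05) were called without correction and not with it.

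Among other goblet secreted products none rose, and of 11 tested 4 fell without correction (median -0.75) and 7 with it (median -0.90). The resistin-like protein Retnlb had 0.243, 0.148 and 0.534 CPM in the ΔIEC libraries, against 10.1, 5.48 and 4.77 CPM in the control libraries, and its corrected log2 fold change of -5.59 (SE 0.61, adjusted p = 0.0012) rests on 5 to 18 reads in the ΔIEC libraries, against 164 to 291 in the control libraries. The chemokine Ccl9 was lower with correction (-1.56, adjusted p = 0.0097) and not without it (-0.14, adjusted p = 0.66). Ccl6 (-1.46) and the bacteria-binding protein Lypd8 (-1.06) fell with correction and did not pass without it (-0.21 and -0.51). Each call was lost without ΔIEC library 1 (-1.29 and -0.87) and without control library 1 (-1.47 and -0.86) or 2 (-1.14 and -0.98). Ccl6 was also lost without ΔIEC library 2 (-1.27) and Lypd8 without ΔIEC library 3 (-1.06). Tpsg1 fell without correction alone (-1.29 and -0.24). Several of these products are also made by Paneth or immune cells. The 7 corrected calls numbered 2 without ΔIEC library 1 or control library 1, 4 without ΔIEC library 2 and 3 without control library 2.

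Of 5 other mucins tested, 2 rose without correction and 1 fell with it (medians 0.10 and -0.38). The enterocyte membrane mucin Muc13 had 1293, 1866 and 1457 CPM in the ΔIEC libraries, against 465, 526 and 754 CPM in the control libraries (1.403, adjusted p = 0.00081), and missed the threshold with correction (0.43, adjusted p = 0.12). Muc4 rose without correction (0.70, adjusted p = 0.035), a call lost without ΔIEC library 2 (0.37) or any control library (0.73, 0.68 and 0.59 without control library 1, 2 and 3). Muc3 had an estimate of 0.10 without correction (adjusted p = 0.74) and fell with it (-0.80, adjusted p = 0.024), a call lost without ΔIEC library 1 (-0.71), ΔIEC library 2 (-0.83), control library 1 (-0.63) or control library 3 (-0.78). Muc3 and Muc3a are near-identical copies that can share reads. The number of uncorrected calls was 1 without ΔIEC library 2, control library 1 or control library 3, and the number of corrected calls was 2 without control library 2 and 0 without ΔIEC library 2, control library 1 or control library 3.

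Of 13 genes of mucus processing and ion transport, 10 rose and 2 fell without correction (median 1.35), and 3 rose and 2 fell with it (median 0.20). The sodium-proton exchanger Slc9a3 had 152, 190 and 187 corrected CPM in the ΔIEC libraries, against 51.0, 57.6 and 84.0 in the control libraries (1.46, SE 0.22, adjusted p = 0.0021), and the call held without each library. The anion exchanger Slc26a6 fell (-0.91, adjusted p = 0.012), and the call was lost without ΔIEC library 2 (-0.79, adjusted p = 0.054). Clca3a2 (1.26) and Clca3a1 (1.14), relatives of Clca1 that can share reads with each other, rose with correction, and stood at 2.55 and 2.84 without it. Both calls were lost without ΔIEC library 1 (1.22 and 1.23) or control library 2 (1.13 and 0.96), and that of Clca3a1 without ΔIEC library 2 (1.152) or control library 3 (1.10). The chloride channel Cftr, whose bicarbonate unfolds the mucus, rose without correction (2.001) and stood at 0.20 with it, and the chloride-bicarbonate exchanger Slc26a3 rose without correction (1.70) and stood at 0.29 with it. The 5 corrected calls numbered 2 without ΔIEC library 1 and 3 without ΔIEC library 2, control library 2 or control library 3.

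**Figure D5:**
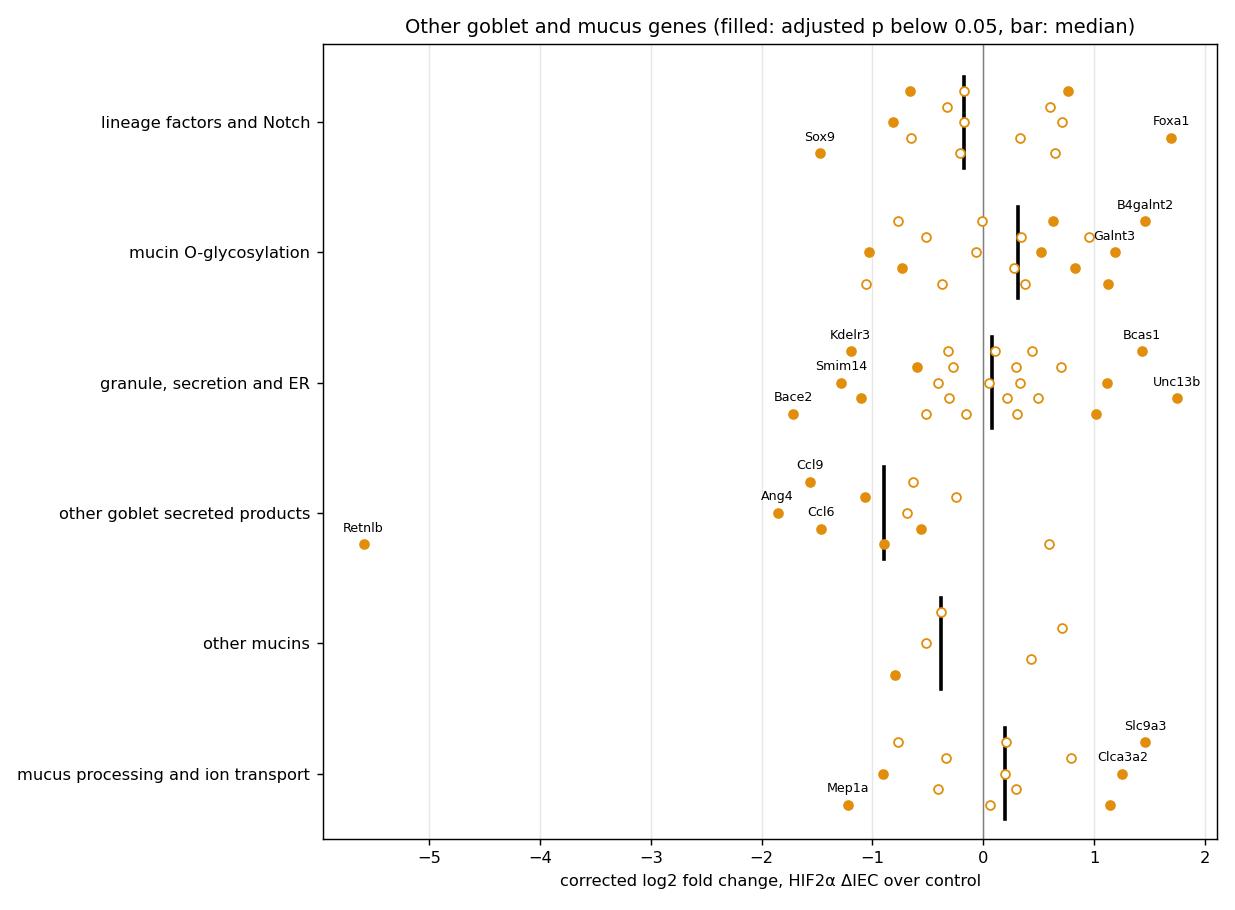
Corrected log2 fold change of HIF2α ΔIEC over littermate control libraries (horizontal axis) for every tested gene of the 6 lists (rows). Filled points passed an adjusted p below 0.05 and black bars are list medians, from -0.90 for other secreted products to 0.31 for O-glycosylation.

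Markers of other cells and of intestinal segments moved with the groups in part, and sums are given without and with correction. A sum is set mostly by its most abundant genes. Of all tested genes, 37.2% were called higher and 29.7% lower without correction, and 14.3% higher and 15.6% lower with it. The sum of 8 enterocyte markers was 11509 to 13691 CPM in the ΔIEC libraries, against 21015 to 30480 CPM in the control libraries, and with correction 12921 to 14948 CPM in the ΔIEC and 17901 to 23622 CPM in the control libraries. The ranges were apart on both scales, but the markers were split, with 2 higher and 2 lower without correction and 1 higher and 3 lower with it. The sum of 5 crypt stem cell markers was 1077 to 1418 CPM in the ΔIEC libraries, against 320 to 440 CPM in the control libraries, and with correction 790 to 1135 CPM in the ΔIEC and 354 to 578 CPM in the control libraries. Of these, 2 rose and 1 fell without correction, and 3 rose with it. The sum of 6 enteroendocrine markers overlapped without correction, at 405 to 568 CPM in the ΔIEC and 395 to 588 CPM in the control libraries, with 2 higher and 2 lower. With correction it was apart, at 516 to 738 CPM in the ΔIEC and 334 to 398 CPM in the control libraries, and 3 rose and none fell.

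The sum of 4 proximal intestine markers was 210 to 240 CPM in the ΔIEC libraries, against 348 to 490 CPM in the control libraries, and was apart with correction too, at 241 to 276 CPM in the ΔIEC and 316 to 384 CPM in the control libraries. The 4 were Gata4, Onecut2, Pdx1 and Cybrd1. Of them, 1 rose and 1 fell without correction, and 1 fell with it, so the sum does not stand for all 4. It was not tested as a measure of intestinal segment. The sums of ileal, Paneth, tuft, lymphocyte and plasma cell markers overlapped on both scales. Without correction 1 ileal marker rose and 2 fell, 1 Paneth and 1 tuft marker fell, and 1 lymphocyte marker rose. With correction 1 Paneth marker fell and no other marker of these sets was called. Without correction, 3 ileal markers summed to 488 to 1428 CPM in the ΔIEC libraries and 1398 to 2042 CPM in the control libraries, and 8 Paneth cell markers to 8676 to 37131 CPM in the ΔIEC and 23463 to 33270 CPM in the control libraries. On the same scale 5 lymphocyte markers summed to 120 to 686 CPM in the ΔIEC and 161 to 306 CPM in the control libraries, and 3 plasma cell markers to 62.6 to 383 CPM in the ΔIEC and 89.8 to 258 CPM in the control libraries. The fibroblast and muscle markers summed to at most 8.8 CPM in any library without correction. Of 4 colonic markers 2 passed the filter and 1 had no reads. Their sum was 10.7 to 16.8 CPM in the ΔIEC and 4.6 to 6.3 CPM in the control libraries without correction, and with it the ranges overlapped, at 7.63 to 12.2 CPM in the ΔIEC and 6.14 to 8.51 CPM in the control libraries. The part of these cell types and segments in the values of the goblet cell genes was not tested.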

How the data were processed

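RNA was sequenced from small intestinal epithelial cells in 6 libraries, 3 per genotype label, and replicate numbers were given in accession order. The deposited tables hold raw counts, a normalised signal and regularised log2 values, made by the authors. The signal equals the deposited counts divided by 1 size factor per library, and neither it nor the log2 values entered a test. The build was GRCm38 (mm10) and the tools were STAR 2.6.1c, Subread 1.6.1, SAMtools 1.8, FastQC 0.11.8 and cutadapt 1.18, per the submitters' processing notes. Overlapping genes and near-identical copies are uncertain, because strand and multi-mapping settings are not given in the sources used here.

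Counts were tested with edgeR 4.0.16 in R 4.3.3 (robust quasi-likelihood test, TMM, filterByExpr with a minimum count of 10 and total of 15), with Benjamini-Hochberg adjustment over all 15143 genes and a threshold of 0.05. The standard error is the log2 fold change over the square root of F. Names, positions, GC content and length (medians over transcripts) came from GENCODE M21, in which 55117 of 55298 identifiers matched without version. For the correction, the deviation of every library from the mean log2 CPM (prior count 2) was fitted with natural splines, with 6 degrees of freedom for GC content and 5 for log2 length, and used as offsets over 15135 genes. It also removes true differences that follow GC content or length. The main edgeR fits, with and without correction, were tried on simulated counts with known changes in genes drawn at random. Any trends added there were those that the correction had fitted to these libraries. The trial therefore cannot show whether the correction suits the data. The alternative fits and the descriptive steps were not.

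Members, lists and tests were chosen with earlier results of these data known. Genes named from the lists were at most 4 per list called with correction and 2 called without correction only, by smallest p. Genes of similar pattern were compared among named genes with a mean of at least 2 CPM. Atoh1 lies outside this rule and was chosen after its values were seen. Fcgbpl1 and Muc17 found no match. Alternatives used limma 3.58.1 and DESeq2 1.42.0.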

Additional observations from a re-analysis of the deposited data

How the results depend on the processing

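Without correction, 5 to 8 of the 10 goblet cell genes were called when 1 library was left out and 7 to 8 under the other alternatives, against 7. With correction the numbers were 1 to 4 and 2 to 8, against 2. The highest, 8, came from correcting length alone, which leaves the GC trend in place, and the others gave 2 or 3. Estimates that turned round were of genes not called in that fit with all libraries, apart from Hes1. Without correction these were Muc2 (-0.00034 to 0.36 with 1 library left out) and Zg16 (0.18 under total count scaling). With correction they were Tff3 (-0.20 with GC content alone, -0.70 with length alone, -0.013 in limma-voom, and -0.078 to 0.21 with 1 library left out), Fcgbp (0.26 with GC content alone, 0.0057 with a filter of 1 CPM in 3 libraries, and -0.21 to 0.15 with 1 library left out), Zg16 (0.10 with the longest transcript), Agr2 (-0.0052 to 0.74 with 1 library left out) and Hes1 (-0.42 with length alone, -0.52 with the longest transcript). The cause was not tested.

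Over all genes, the 4524 corrected calls numbered 9906 with length alone, 2285 without ΔIEC library 1, 2845 without ΔIEC library 2 and 2618 without control library 2. Over the alternatives that keep all libraries, the corrected calls ranged from 2 to 9 for lineage factors (5), 5 to 15 for O-glycosylation (8), 9 to 19 for granule genes (9), 3 to 9 for other products (7), 1 to 2 for other mucins (1) and 4 to 9 for mucus processing (5). Without correction they ranged from 4 to 11 for lineage factors (8), 11 to 21 for granule genes (19) and 3 to 9 for other products (4). No paired analysis was possible because the labels give the libraries no shared replicate numbers. The median count of a tested gene was 444 reads. Depth was lowest among the goblet cell genes for Rep15, with 84 reads in 1 control library.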
